A study of Mus musculus with 6 samples.

Results

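Genes of the motile cilium and its axoneme were followed in N2a (neuro2a) cells, a mouse neuroblastoma line, after knockdown of the transcription factor NF-Y. The list holds 58 genes, among 16490 genes tested in the series. It was chosen by the measured changes of Ccdc96 and Wdr78, which rose most in this contrast, and the other 56 genes were added for their function. All cells of the series were transfected N2a cells. The 3 control arrays carried RNA of cells given the empty RNAi vector, and the 3 knockdown arrays that of cells in which NFYA and NFYC were targeted by RNAi vectors. Nothing in the labels said whether replicates were separate cultures, so the tests measure the spread between these 6 samples, which may be technical. NF-Y is a heterotrimer of NF-YA, NF-YB and NF-YC that binds CCAAT boxes in promoters.

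A motile cilium beats by means of its axoneme, a ring of doublet microtubules around a central pair. Inner and outer dynein arms on the doublets are the motors, and they are assembled in the cytoplasm by dedicated factors before they are carried into the cilium. Radial spokes, the central pair and the nexin-dynein regulatory complex control the beat. In multiciliated cells FOXJ1, MCIDAS and the RFX factors switch these genes on, and RFX factors bind the X-box. Neuroblastoma cells are not known as multiciliated cells, and many members of the list are markers of airway or ependymal epithelium.

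Promoter windows of 4 of the genes described here are shown because they hold the letters of the motif that NF-Y binds, CCAAT, or of one arm of the RFX X-box, GTTGCC. They are Ccdc96 and 2 other members with a higher signal in the knockdown, Drc1 and Zmynd10, and the clearest member with a lower signal, Spag16. The sequences come from RefSeq on build GRCm38.p6, plus strand, from 130 bases before to 30 bases after the annotated start, and capitals mark either motif on either strand. Ccdc96 lies at chr5:36484458-36484617, Drc1 at chr5:30281263-30281422, Zmynd10 at chr9:107547174-107547333 and Spag16 at chr1:69826840-69826999.
Ccdc96: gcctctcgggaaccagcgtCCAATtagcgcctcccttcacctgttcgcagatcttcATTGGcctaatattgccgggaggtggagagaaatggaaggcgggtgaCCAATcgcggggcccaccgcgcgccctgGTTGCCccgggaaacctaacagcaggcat
Drc1: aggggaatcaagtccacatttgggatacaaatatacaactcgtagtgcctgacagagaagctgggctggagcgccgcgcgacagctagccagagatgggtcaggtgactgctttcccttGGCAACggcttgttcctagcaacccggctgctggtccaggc
Zmynd10: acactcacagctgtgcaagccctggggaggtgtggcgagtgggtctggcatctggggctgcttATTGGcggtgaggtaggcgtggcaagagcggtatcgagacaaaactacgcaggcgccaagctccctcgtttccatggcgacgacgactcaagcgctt
Spag16: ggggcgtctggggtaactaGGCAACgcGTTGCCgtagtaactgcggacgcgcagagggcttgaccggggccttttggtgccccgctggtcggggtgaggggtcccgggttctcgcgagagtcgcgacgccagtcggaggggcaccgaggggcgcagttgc

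The Ccdc96 window held CCAAT 3 times, with its first printed base 111, 74 and 27 bases before the start, and GTTGCC 1 time, from transcribed base 2. Zmynd10 had CCAAT on the minus strand 67 bases before the start. Drc1 had GTTGCC on the minus strand 11 bases before the start. In Spag16 2 copies of GTTGCC pointed away from each other 111 and 103 bases before the start, and no CCAAT was found. A match of letters is a description and not a binding site.

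Values are normalized signals, the log2 of an array's processed signal minus that array's 75th percentile, so that 0 is the 75th percentile of the same array. Each gene is represented by its brightest tested probe on average, and a change is knockdown minus control on this log2 scale. The label "well above background" is the scanner software's own flag for a spot. The 75th percentile was 718 to 754 intensity units, and 61.9% to 66.2% of spots were well above background, lowest on knockdown 2. The limit of precision is the number of arrays. The targeted genes were lower on every knockdown array. Nfya was 0.17 ± 0.037 (SD, n = 3) in controls and -0.59 ± 0.071 (SD, n = 3) in the knockdown, and Nfyc was 3.97 ± 0.034 (SD, n = 3) and 2.17 ± 0.038 (SD, n = 3). Nfyb, which was not targeted, changed by 0.83 (SE 0.060). Of 19 neuronal and neuroblastoma markers 18 were well above background on all 6 arrays, the exception being Nefl, while Mycn, Th and Eno2 were lower in the knockdown. The controls and knockdown 1 lay in 1 row of the slide and knockdown 2 and 3 in the other row. In bulk RNA, fewer cells of a type and less RNA per cell cannot be told apart.

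Many members gave signal in these cells before any comparison is made. Of the 58 genes, 52 had a probe that could be named, and Dnah7a, Dnah12, Ccdc40, Ccdc114, Armc4 and Cfap54 had none. For 29 members all 6 arrays were well above background, for 16 some arrays were, and for 7 none was, which were Dnah2, Dnah5, Lrrc6, Ccdc39, Spag6, Ak7 and Cfap206. All 3 control arrays measured 33 members and all 3 knockdown arrays measured 32. Dnah5, Dnah11 and Spag17 did not reach the filter, leaving 49 members tested. Among 12 markers of multiciliated and ependymal cells, some of them members, 7 were well above background on all 6 arrays. Mcidas, Tppp3, Ccno, Deup1, Pifo, Rsph1 and Tekt1 made up that group. Gmnc, Sntn, Fam183b and Ak7 were on no array, and Foxj1 was on 0 control and 2 knockdown arrays. Of 14 markers of glia, fibroblasts, vessel and blood cells, 8 were well above background on all 6 arrays and Col3a1, Cx3cr1 and Cdh5 on none. Their part in the results below was not tested.

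A gene was called when limma's adjusted p was below 0.05 and the fold change above 1.5. Among the 49 tested members 8 were called higher in the knockdown (16.3%), against 3.91% of all genes tested, and 2 were called lower (4.08%), against 5.0%. Ccdc96 and Wdr78 are 2 of the 8 and founded the list, so nothing is read from this count. Without them, 6 of 47 members were called higher (12.8%) and 2 lower (4.26%). The 6 include Dnah2, which reached the filter through the knockdown arrays alone and was well above background on 0 arrays. The remaining 39 members passed neither call. All knockdown arrays lay above all controls for 16 members and below them for 6, and the groups overlapped for 27. The 16 include the founding pair, and without it 14 of 47 lay above, Dnah2 among them. Over all genes 27.7% had all knockdown arrays above and 27.1% below. The median change was 0.072 over the 49 members, 0.017 over the 47 without the founding pair, and 0.005 over all genes. A total of 27 changes were above 0 and 22 below. The median member thus stayed near 0, with a few members far from it.

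**Figure D1:**
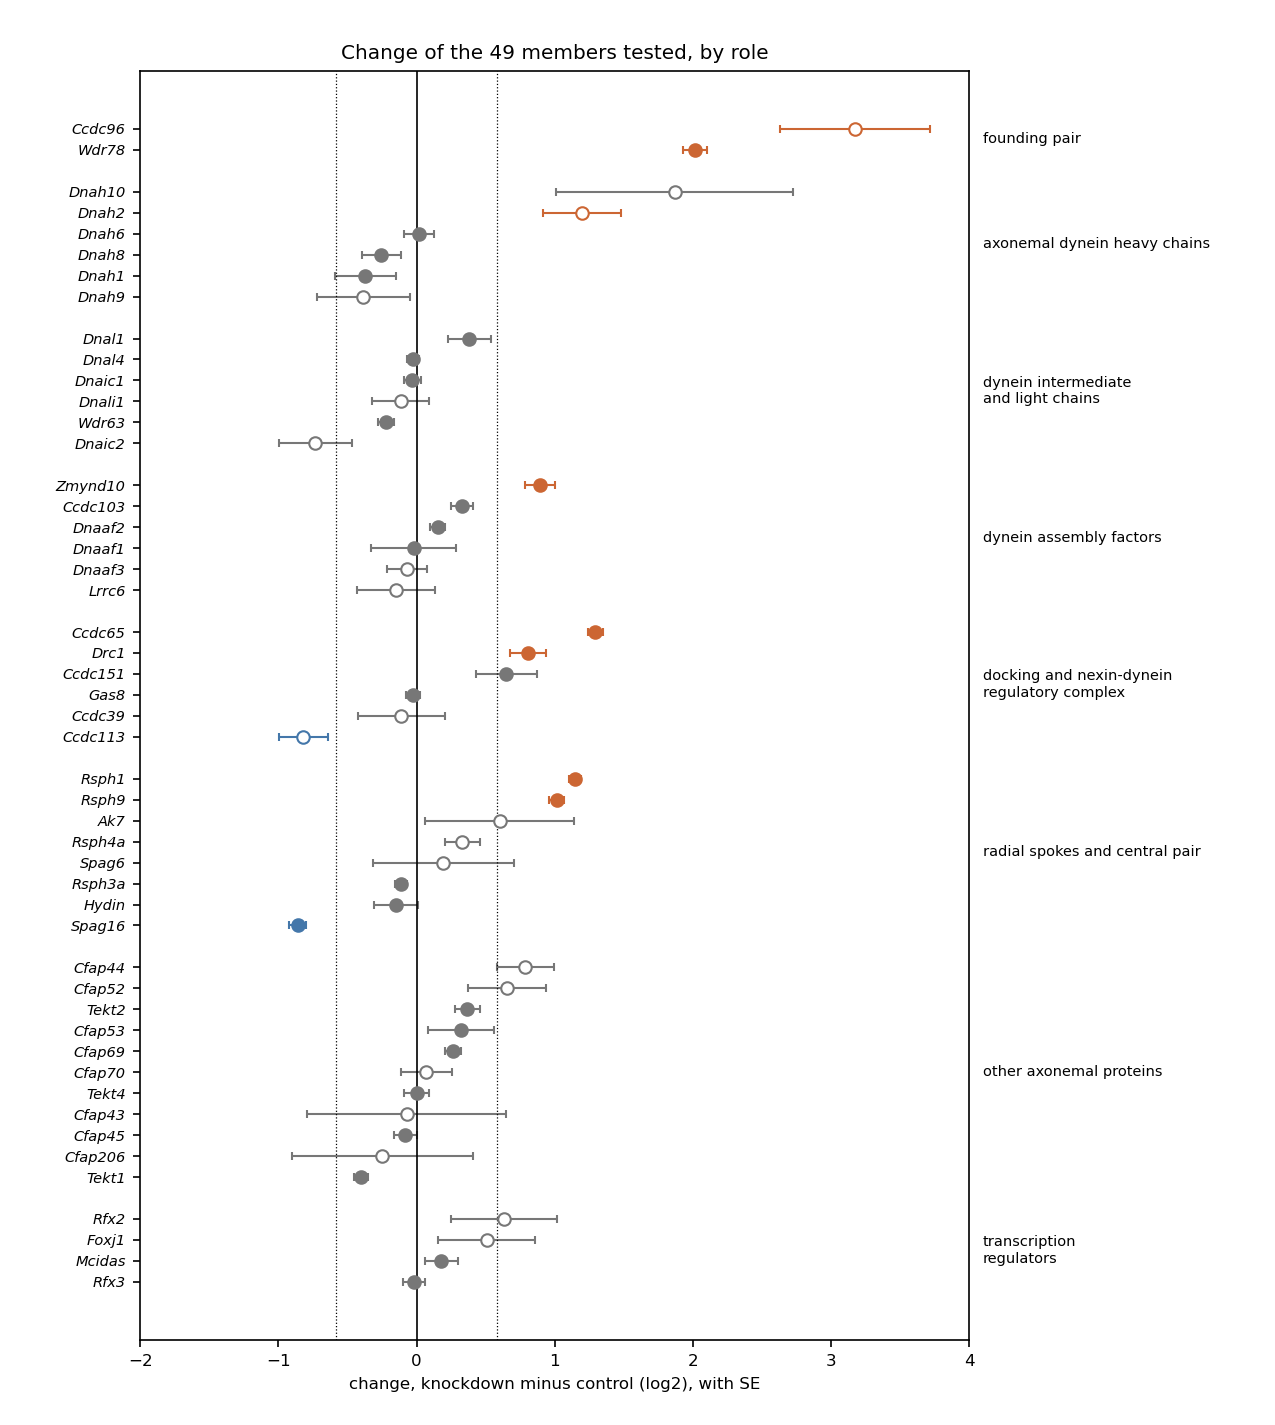
Change of each of the 49 tested members, knockdown minus control on the log2 scale with its SE, grouped by role. Filled points were well above background on all 6 arrays, open points on fewer, orange points were called higher, blue points lower, and dotted lines mark a 1.5-fold change. The median lies at 0.072, and 10 members are coloured.

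Ccdc96, a coiled-coil protein of the axoneme, gave the largest measured difference. Its normalized signal was -6.40, -6.93 and -6.34 on control arrays 1 to 3 and -3.92, -2.20 and -4.03 on knockdown arrays 1 to 3. It was well above background on 0 control arrays and on 3 knockdown arrays, so the size of the difference is uncertain. With each control raised to the lowest signal well above background on its array, the knockdown was 7.17-fold higher. This floored fold is not a minimum, since signals that are not well above background can exceed that lowest signal. Knockdown 2 stood apart, and without it the floored fold was 4.76. Within the slide row that holds all controls and knockdown 1, the measured change was 2.63, and with normexp background correction it was 0.99. Wdr78, an intermediate chain of an inner dynein arm, was measured on all 6 arrays. It stood at -3.22, -3.08 and -3.02 in the controls and -0.96, -1.11 and -1.20 in the knockdown, a change of 2.02 (SE 0.087), or 4.05-fold. The groups were far apart and each was tight. A second Wdr78 probe was well above background on 0 of 6 arrays. Both genes are given without a test because their changes in this contrast chose the list.

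**Figure D2:**
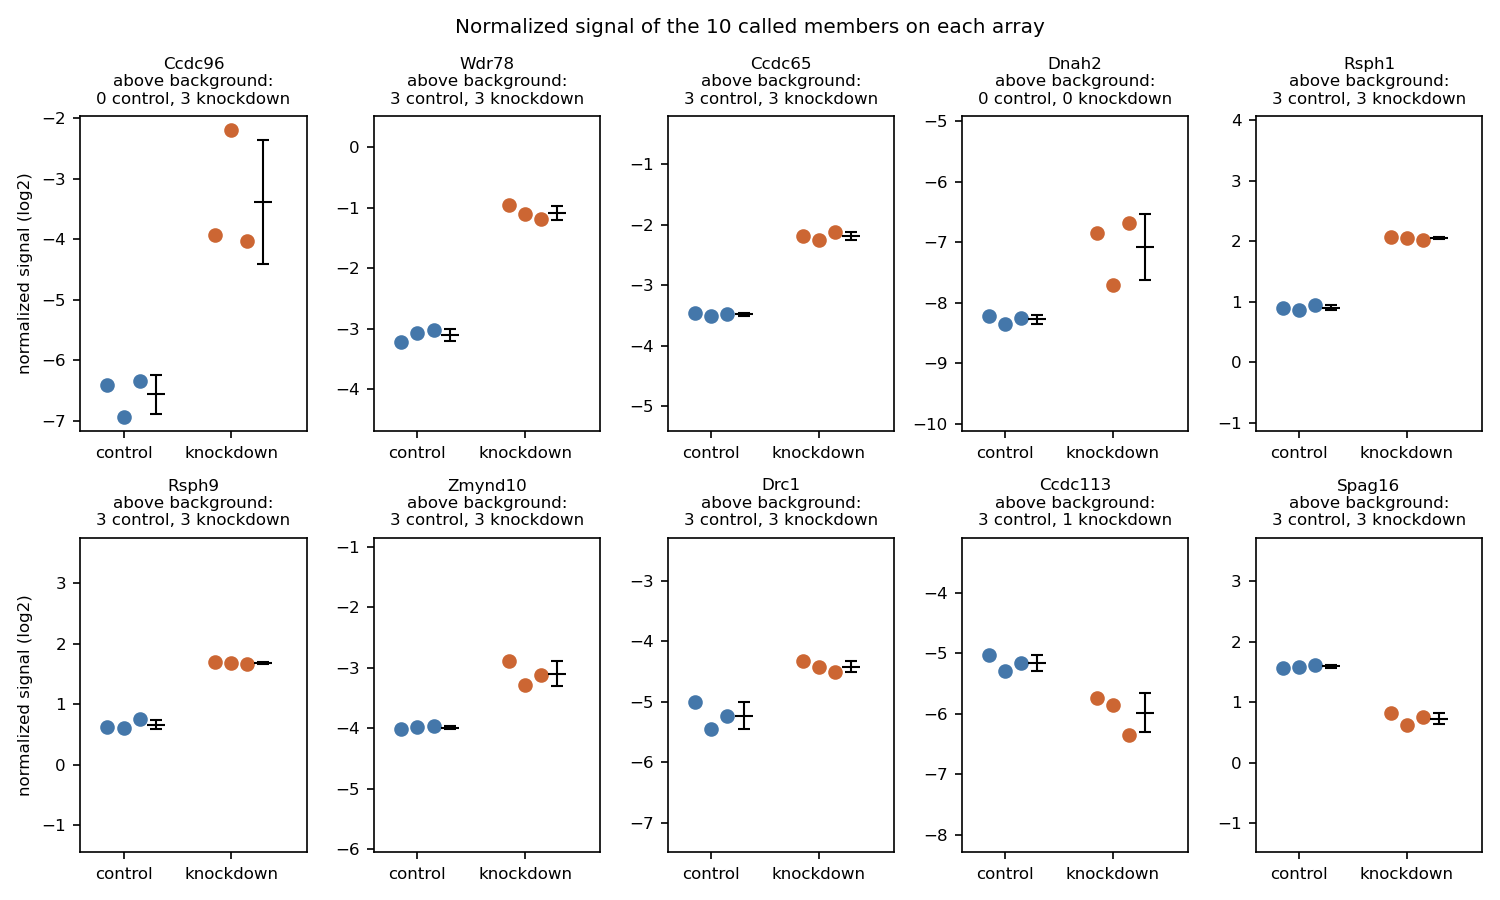
Normalized signal (log2, 0 being the 75th percentile of the array) of the 10 called members on the 3 control and the 3 knockdown arrays, with the mean and SD beside the points and the number of arrays well above background over each panel. All panels span the same number of log2 units. Ccdc96 on knockdown 2, at -2.20, lies above the other knockdown arrays. No panel has overlapping groups, which is not read as a result, since only called members are drawn.

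Of the radial spoke proteins, Rsph1 and Rsph9, which build the spoke head, were higher in the knockdown. Rsph1 was 0.90, 0.86 and 0.95 in controls and 2.07, 2.06 and 2.03 in the knockdown. Its change was 1.15 (SE 0.045), or 2.21-fold, with a limma adjusted p of 3.7e-04. A second Rsph1 probe also rose, by 1.15 (SE 0.056). Rsph9 went from 0.62, 0.61 and 0.75 to 1.69, 1.68 and 1.65, a change of 1.02 (SE 0.055), or 2.02-fold, with a limma adjusted p of 6.5e-04. For both genes the gap between the groups was many times the spread within them. Rsph4a, another spoke head protein, was near background at -6.02, -6.11 and -6.09 against -5.66, -6.01 and -5.56, and 2 arrays of each group measured it. Rsph3a of the spoke stalk changed by -0.11 (SE 0.043) and was not called. Mice carry a close copy of Rsph3a that its probe may not separate.

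Spag16, a protein of the central pair, went the other way. It was 1.57, 1.59 and 1.61 in controls and 0.81, 0.62 and 0.75 in the knockdown. The change was -0.86 (SE 0.062), a 1.82-fold lower signal with a limma adjusted p of 0.0013. The second Spag16 probe, on no array well above background, was not tested. Hydin, also of the central pair, was measured on all 6 arrays and changed by -0.15 (SE 0.16). Spag6 and Ak7 were well above background on 0 of 6 arrays. Spag17 was at -8.36, -8.51 and -8.46 in controls and at -8.41, -6.29 and -3.98 in the knockdown, with only knockdown 3 well above background, and a second Spag17 probe was well above background on 0 of 6 arrays.

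Among the genes of dynein docking and of the nexin-dynein regulatory complex, Ccdc65 and Drc1, both subunits of that complex, rose, while Ccdc113 fell and Gas8 did not pass the call. Ccdc65 moved from -3.46, -3.50 and -3.48 to -2.19, -2.25 and -2.11. This change of 1.29 (SE 0.052) is 2.45-fold, with a limma adjusted p of 3.8e-04. A second Ccdc65 probe gave 1.26 (SE 0.29), with no control array above background, and the other gave 0.65 (SE 0.44) with overlapping groups. Drc1 stood at -5.00, -5.45 and -5.24 against -4.33, -4.43 and -4.51, a change of 0.81 (SE 0.13), or 1.75-fold, with a limma adjusted p of 0.011. Drc1 was called under 15 of 18 other settings, and its change fell to 0.26 with normexp and quantile scaling. Gas8, a core subunit with signal on all arrays, was 3.66, 3.62 and 3.54 against 3.60, 3.59 and 3.55. Thus 2 subunits of the complex were higher while Gas8 overlapped between groups.

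Ccdc113, which is needed for ciliary function, was -5.04, -5.30 and -5.17 in controls and -5.75, -5.86 and -6.35 in the knockdown. It was well above background on 3 control arrays and on 1 knockdown array. The change was -0.82 (SE 0.18, limma adjusted p 0.030), and it was called under 10 of 18 other settings. Within the slide row of the controls the change was -0.58. Ccdc151, which attaches outer dynein arms, changed by 0.65 (SE 0.22, limma adjusted p 0.098), with all knockdown arrays above all controls. Ccdc39, a ruler of axonemal spacing, was well above background on 0 of 6 arrays.

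Of the 6 factors that assemble dynein arms in the cytoplasm, 1 was called, Zmynd10, and 3 had all knockdown arrays above all controls. Over all genes 3.91% were called higher and 27.7% had all knockdown arrays above. Zmynd10 was -4.02, -3.99 and -3.96 in controls and -2.88, -3.29 and -3.12 in the knockdown. This is a change of 0.89 (SE 0.11), or 1.86-fold, with a limma adjusted p of 0.0053. Its knockdown arrays varied more than its controls but did not reach them. It was called under 16 of 18 other settings, both exceptions being normexp. Ccdc103 was also higher on every knockdown array, by 0.33 (SE 0.078), under the 1.5-fold limit, and a second Ccdc103 probe changed by 0.59 (SE 0.12) and was called. Dnaaf2 changed by 0.15 (SE 0.055), Dnaaf1 by -0.02 (SE 0.31) and Dnaaf3 by -0.07 (SE 0.14), none of them called. Lrrc6 was well above background on 0 of 6 arrays.

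The motor subunits themselves gave no member with a called change that was also measured above background, Wdr78 set aside. Of 10 heavy chains 3 were measured on all arrays. They were Dnah6 with a change of 0.02 (SE 0.11), Dnah8 with -0.25 (SE 0.14) and Dnah1 with -0.37 (SE 0.22). Dnah2 met the call at -8.21, -8.36 and -8.25 against -6.85, -7.70 and -6.68, but 0 of 6 arrays were well above background, so no fold is given. It reached the filter through the knockdown arrays alone, where it was higher, and was called under 4 of 16 other settings. Dnah10 was -7.18, -6.74 and -7.96 against -6.77, -3.69 and -5.82, and knockdown 2 was the single array well above background for this probe. The groups overlapped (limma adjusted p 0.19). The floored fold of the means was 1.74, which rests on knockdown 2, since without it no array was well above background. A second Dnah10 probe was also high on knockdown 2 alone, at -2.33, and the remaining one on knockdown 3 alone, at -4.15. Dnah9 changed by -0.38 (SE 0.34).

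The intermediate and light chains gave no calls among 6, where 3.91% of all genes were called higher and 5.0% lower. Dnaic1 stayed between -1.36 and -1.17 on all arrays. Dnaic2 was above background on 3 control arrays and on 0 knockdown arrays. With its knockdown signals floored in the same way it was 1.25-fold lower, and it was not called (limma adjusted p 0.11). Wdr63 was 1.53, 1.49 and 1.43 against 1.35, 1.24 and 1.20, a change of -0.22 (SE 0.059) with a limma adjusted p of 0.052. Dnal4 changed by -0.03 (SE 0.045) and Dnal1 by 0.38 (SE 0.16). Dnali1 was well above background on 1 control array alone.

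Among 11 other axonemal proteins none met the call, against 3.91% of all genes called higher and 5.0% lower. Tekt1, a tektin of the doublet wall, was -2.09, -1.99 and -2.10 in controls and -2.42, -2.51 and -2.45 in the knockdown. Its change of -0.40 (SE 0.053) had a limma adjusted p of 0.0065 but was under 1.5-fold. Tekt2 changed in the opposite direction, by 0.37 (SE 0.090, limma adjusted p 0.043), and Tekt4 by 0.00 (SE 0.092). The 3 tektins thus did not move together. Cfap69 rose by 0.27 (SE 0.058, limma adjusted p 0.030), also under 1.5-fold. Cfap44 was on 0 control arrays and 3 knockdown arrays. Its measured change was 0.79 (SE 0.21), or 1.73-fold, with a limma adjusted p of 0.0503. No floored fold is given, since each control signal exceeded the lowest signal well above background on its array. Cfap52 changed by 0.66 (SE 0.28), Cfap53 by 0.32 (SE 0.24), Cfap45 by -0.08 (SE 0.081) and Cfap70 by 0.07 (SE 0.18). Cfap43 was well above background on 1 knockdown array and Cfap206 on none.

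The regulators of the programme gave no call by their brightest probes. Mcidas, a coactivator of multiciliated cell fate, was measured on all arrays, at 2.66, 3.04 and 2.96 in controls and 2.97, 3.18 and 3.06 in the knockdown, with overlapping groups. Foxj1, the forkhead factor of motile cilia, was -6.39, -6.23 and -6.07 against -5.62, -6.44 and -5.10. It was well above background on knockdown 1 and 3. The floored fold of the means was 1.34, but the groups overlapped and Foxj1 was not called (limma adjusted p 0.37). Rfx2 was measured on 1 array of each group and changed by 0.63 (SE 0.38). Rfx3 gave different results by probe. The brightest probe changed by -0.02 (SE 0.082), the next by -0.35 (SE 0.12) and the third by -0.85 (SE 0.065), the last called lower with a limma adjusted p of 0.0014, all of them above background on 6 arrays.

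The other genes of cilia were taken from 6 lists with 196 genes, of which 168 were tested. They held 7 calls in each direction, 4.17% either way, close to the share of all genes. The lists differed in where those calls fell. Intraflagellar transport carries cargo along every cilium, motile or primary, and of 31 tested genes of this list 5 were called higher (16.1%) and 0 lower, against 3.91% and 5.0% of all genes. Its median change was 0.24, and all knockdown arrays lay above all controls for 19 of the 31, against 27.7% of all genes. Over the 6 lists together, the 7 calls higher went to 2 and 4 with normexp background correction and to 4 with the slide row as a block. With no minimum fold, 45.2% of the intraflagellar transport list passed the adjusted p with a rise and 12.9% with a fall, against 15.7% and 15.8% of all genes. This was not particular to transport genes. Rises and falls were 32.3% and 12.9% in the BBSome and transition zone list and 29.2% and 12.5% in the centriole list. In the list of other axonemal genes, the one most like the members, they were 17.3% and 15.4%, near the shares of all genes. Falls were more frequent in the tubulin enzyme list (12.5% and 18.8%, 2 and 3 genes) and the RFX list (14.3% and 28.6%, 2 and 4 genes).

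Ttc30b, a subunit of the transport complex, went from -3.84, -3.81 and -3.81 to -2.84, -2.88 and -2.86, a change of 0.96 (SE 0.038). Its close copy Ttc30a2 changed by 0.84 (SE 0.14), and the probes may not separate them. Ttc30b was called under 16 and Ttc30a2 under 14 of 18 other settings. Kif3b, a kinesin-2 motor, was -0.30, -0.33 and -0.30 in controls and 0.38, 0.30 and 0.27 in the knockdown, a change of 0.63 (SE 0.048). The other 2 called genes, Dync2h1 and Ift22, changed by 0.61 (SE 0.11) and 0.59 (SE 0.093). All 5 had every knockdown array above every control array, which the call itself makes likely.

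The BBSome and transition zone list, whose proteins gate and sort cargo at the base of the cilium, had 2 called higher and 1 lower of 31. These are 6.45% and 3.23%, against 3.91% and 5.0% of all genes. Tctn2 of the transition zone went from 0.30, 0.23 and 0.32 to 1.77, 1.75 and 1.69, a change of 1.45 (SE 0.049). Cc2d2a of the same zone changed by 0.81 (SE 0.065). Nphp4 was lower, from 1.75, 1.77 and 1.83 to 1.04, 0.94 and 1.03, a change of -0.78 (SE 0.051). The list's median change was 0.12. All knockdown arrays lay above all controls for 19 of the 31, as in the transport list, against 27.7% of all genes.

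Axonemal genes outside the members gave 0 called higher and 4 lower of 52 (7.69%), against 3.91% and 5.0% of all genes. Efhc2, a protein of the doublet wall, was -0.08, -0.26 and -0.08 in controls and -1.07, -1.16 and -1.05 in the knockdown, a change of -0.95 (SE 0.072). Mns1, also of the axoneme, changed by -0.73 (SE 0.055) and Ropn1l by -0.64 (SE 0.095). Cfap65 was called lower too but was well above background on 1 control array and on 0 knockdown arrays, so no fold is given, and it was called under 8 of 16 other settings. Regardless of the call, 28 of the 52 changes were above 0 and the median was 0.03.

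Of 24 centriole and basal body genes 1 was called, Cetn3, with a change of -0.72 (SE 0.052). This is 4.17% of the list, against 5.0% of all genes called lower. Agbl5, which trims polyglutamate chains from tubulin, was -0.52, -0.56 and -0.54 in controls and -2.24, -2.38 and -2.30 in the knockdown. Its change of -1.77 (SE 0.053) was the largest fall in the 6 lists, and the other 15 tested tubulin modifying enzymes were not called. Thus 6.25% of that list was called lower, against 5.0% of all genes. The 14 tested RFX factors and multiciliated cell regulators outside the members gave no limma call. With no minimum fold, 2 of them passed the adjusted p with a rise (14.3%) and 4 with a fall (28.6%). Over all genes these shares were 15.7% and 15.8%.

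**Figure D3:**
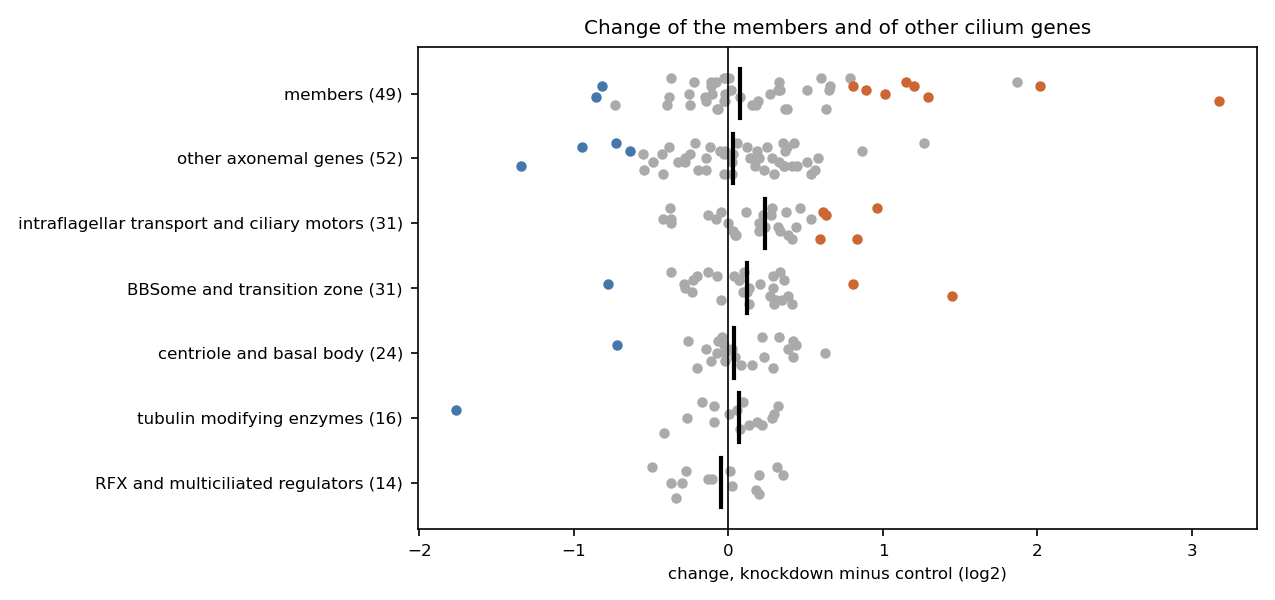
Change (log2, knockdown minus control) of each tested gene of the member list and of 6 lists of other cilium genes, with the number tested in brackets, a black line at each median, and called genes in orange (higher) or blue (lower). The intraflagellar transport genes have a median of 0.24, and the other axonemal genes have no orange point.

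The chromosomal neighbours of Ccdc96 and Wdr78 were read because position had no part in the choice of the list. Tada2b, a subunit of transcription adaptor complexes, lies next to Ccdc96 on the opposite strand, and the 2 start sites are 303 bases apart in RefSeq, facing away from each other. Their promoter windows share 198 bases. Tada2b was -2.95, -2.81 and -2.92 in controls and -1.97, -1.96 and -2.05 in the knockdown, a change of 0.90 (SE 0.059) with a limma adjusted p of 0.0010. The gene on the other side, Tbc1d14, changed by -0.69 (SE 0.047, limma adjusted p 0.0012). Grpel1 and D5Ertd579e, one gene further out, changed by 0.01 (SE 0.044) and 0.24 (SE 0.059) and were not called. The rise of Ccdc96 itself chose the list, so the pair is not read as a joint result.

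Insl5, next to Wdr78, was -5.17, -5.05 and -5.04 in controls and -4.46, -3.99 and -3.97 in the knockdown. The change was 0.95 (SE 0.15, limma adjusted p 0.011). It was called under 16 of 18 other settings. Mier1 on the other side changed by 0.20 (SE 0.063), Slc35d1 by 0.15 (SE 0.062) and Tctex1d1 by -0.02 (SE 0.094), none of them called.

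**Figure D4:**
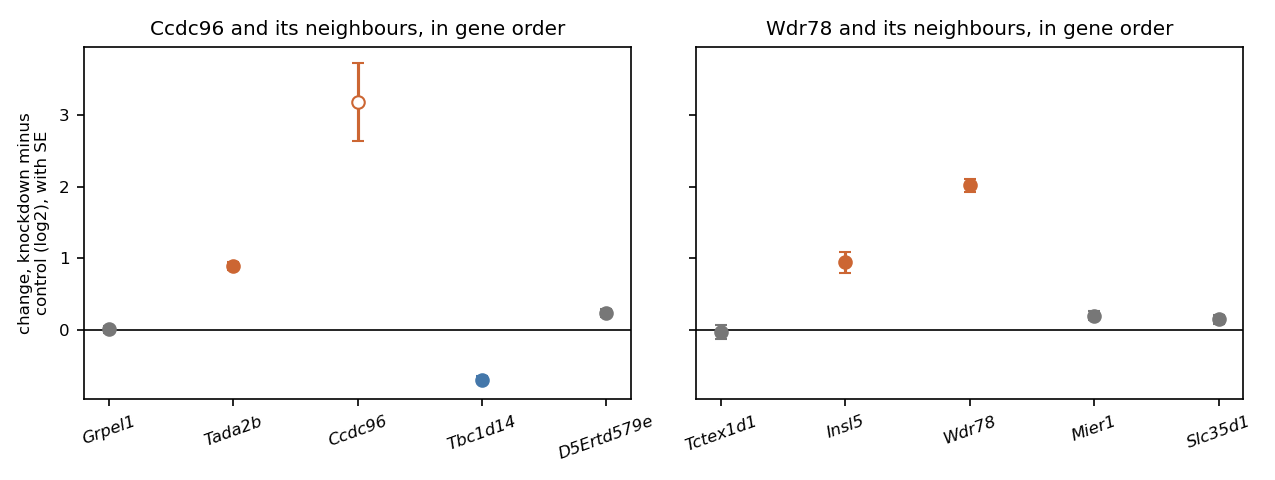
Change (log2, knockdown minus control, with SE) of Ccdc96, Wdr78 and the 2 nearest named protein-coding genes on each side, in chromosome order and not to scale. Orange marks genes called higher, blue lower, and the open point of Ccdc96 was well above background on 0 control arrays. Tada2b rose by 0.90 beside Ccdc96, and Insl5 by 0.95 beside Wdr78.

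A promoter window of 250 bases before to 50 after the start was given for 49 of the 58 members, Armc4, Cfap53, Cfap54, Dnaaf1, Foxj1, Lrrc6, Rsph1, Rsph4a and Wdr78 being without one. Each motif was searched on both strands, and a gene with several windows counts when any of them holds it. CCAAT and GTTGCC can share 2 bases, which happened in 0 of the member windows. CCAAT was found in 24 of the 49 (49.0%), against 42.6% of the 13098 tested genes with a window and 41.1% of all 27025 genes with a window. GTTGCC was found in 20 (40.8%), against 14.5% of tested genes and 14.1% of all genes with a window. GTAAACA, a forkhead motif, was found in 2 (4.08%), against 3.27% and 4.05%. With the longer GTTGCCA the share of members was 18.4%, against 4.70% of tested genes and 5.02% of all genes with a window. The members thus differed from other genes most in the X-box arm, by counts alone and without a test.

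Ccdc96 and Dnah2 are among the 6 members called higher that had a window, the first because it founded the list and the other with no array well above background, so their motif counts are a description only. CCAAT was in 5 of the 6 and GTTGCC in 3, against 42.6% and 14.5% of tested genes. Rsph9 and Dnah2 held CCAAT, 213 and 167 bases before the start, without GTTGCC, and Ccdc65 held neither. In the windows printed above, Ccdc96 had both motifs, Drc1 GTTGCC and Zmynd10 CCAAT. The longer windows of Drc1 and Zmynd10 held the other motif as well, for Drc1 a CCAAT 221 bases before the start and for Zmynd10 a GTTGCC from transcribed base 40. Of the 2 members called lower, Spag16 held GTTGCC 2 times, and Ccdc113 held CCAAT 193 bases and GTTGCC 6 bases before the start. Both directions of change were thus found with GTTGCC in the window.

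**Figure D5:**
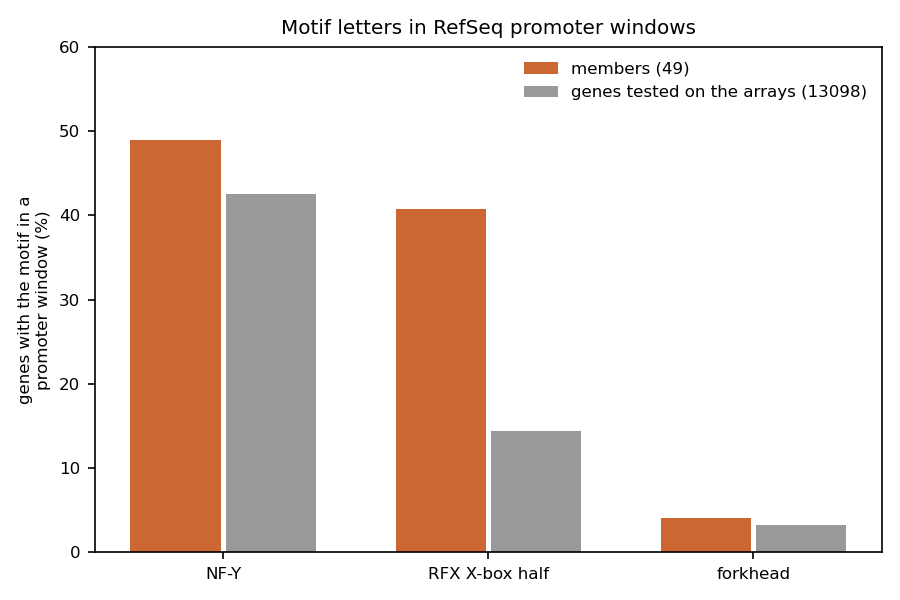
Share of genes (%) with the letters of an NF-Y, X-box arm or forkhead motif in the RefSeq promoter window of 250 bases before to 50 after the start, for the 49 members and for the 13098 tested genes that have a window. The X-box arm bar of the members stands at 40.8% against 14.5%.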

How the data were processed

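RNA of N2a cells was labelled with Cy3 and hybridized to 6 Agilent mouse arrays in a single colour, 3 per group, with groups and replicate numbers taken from the titles. Per the file headers, the authors extracted spots with Feature Extraction, and the deposited intensity values are its background-subtracted processed signals on a linear scale. The deposited series matrix holds log2 values. Over 43557 probes its differences between arrays matched the scaling used here to within 0.0076, so a constant was taken off each probe, and the matrix served as an alternative only. Its column medians were -0.012 to 0.018.

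Control and outlier spots were left out, log2 processed signal was scaled to the 75th percentile of each array, and spots of a probe were averaged. Of 55681 probes, 245 were incomplete, and 42126 that reached the 20th percentile on all 3 arrays of a group were tested. Gene symbols came from RefSeq accessions (25869 of 26392 curated ones matched), and 20548 tested probes had none. A two-sided limma fit (version 3.58.1, R 4.3.3) with the group as its only term compared knockdown with control, and p-values were adjusted by Benjamini-Hochberg across the tested probes. The fit was tested on simulated data. A floored fold sets the brighter mean against, per dimmer array, the higher of its own signal and the lowest signal well above background. It is not a lower limit and carries no error. Tables and figures were made in Python 3.11.15. Same-numbered samples did not deviate together (r of 0.018, 0.067 and 0.0025), so numbers were not taken as pairs.

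The members and all gene lists were chosen with earlier results of these data known. Named were the founding pair with their neighbours, members that were called, not tested or had disagreeing probes, the others by value or role, and up to 3 called genes per direction of each other list, to which Dync2h1, Ift22 and Ropn1l were added after their values were seen. Alternatives were normexp background correction (offset 50) with 75th percentile or quantile scaling, quantile scaling alone, the series matrix, other filters, no minimum fold, a variance trend, array weights, the mean of a gene's probes, blocks for slide row and replicate number, and leaving out each array. The foreground for normexp was the median signal, the one used here.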

Additional observations from a re-analysis of the deposited data

How the results depend on the processing

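Rsph1, Rsph9, Ccdc65 and Spag16 were called in all 18 other settings, and no called gene among those tabulated changed sign. Ccdc96 and Wdr78 chose the list, so their calls within the member counts below are not read as support. With normexp, members called higher went from 8 to 5 (75th percentile) and 5 (quantile), as Zmynd10, Drc1 and Dnah2 dropped under the limits, and members called lower from 2 to 1 and 1. Dim probes shrank there, the 75th percentile setting giving 0.99 for Ccdc96, 0.32 for Drc1, 0.32 for Insl5 and 0.52 for Ttc30b. All-gene calls there were 275 higher and 584 lower (32.0% higher), and 288 and 549 (34.4%) with quantile scaling, against 644 and 824 (43.9%). Other cilium genes called higher went from 7 to 2 and 4 with normexp and to 4 with the slide row block, and their calls lower stayed at 5 to 7 in all settings with a minimum fold. With no minimum fold, calls of other cilium genes were 44 higher and 26 lower (26.2% and 15.5%). Members were then 11 and 3 (22.4% and 6.12%), or 9 and 3 without the founding pair (19.1% and 6.38%). All-gene calls were 2597 and 2602 (15.7% and 15.8%). The contrast of the slide row block rests on knockdown 1 alone against the 3 controls. There Ccdc96 (change 2.63), Drc1, Dnah2 and Ccdc113 did not meet the limits, while Ccdc151, Dnah1 and Dnaic2 did.

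Leaving out 1 array gave 6 to 8 members called higher and 1 to 2 lower, and 5 to 8 and 5 to 7 other cilium genes. Ccdc96 lost its call without control 1 or control 2, Dnah2 lost it in 5 of the 6 and Ccdc113 in 4 of the 6. The replicate block gave 6 members called higher, without Ccdc96 and Dnah2, and 1 lower, with 518 and 765 calls over all genes. Counting any probe left 29 members well above background on all arrays. The share with the X-box arm was 40.8% with GTTGCC and 18.4% with GTTGCCA. Probes not well above background on every array, 23 of the 52, have changes whose size depends on the background correction.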
